A study of Mus musculus with 12 samples.

Results

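The genes described are the immunity-related GTPases Igtp, Irgm1, Irgm2, Iigp1, Tgtp1, Tgtp2 and Ifi47 and the ubiquitin-like modifier gene Ubd, which are 8 of the 24421 entries of the deposited expression table. They were picked by gene symbol, after being chosen on their measured RPKM (reads per kilobase of exon, scaled to the assigned reads of the library) in the same 12 libraries, and no cut-off was applied. Their values below are therefore a description, and no p-value is given for any of them. All 8 passed the filter of at least 1 RPKM in at least 3 libraries, but Ubd did so only through the 6 KO libraries, so its presence among the tested genes already required a difference.

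RNA was sequenced from Treg cells, the CD4 T cells that express Foxp3 and restrain immune responses, of C57BL/6 mice aged 7 weeks. The KO groups carry the genotype label Foxp3CreBatffl/fl, in which Cre recombinase made under the control of Foxp3 removes floxed Batf from Treg cells, so that other cells of the animal keep the gene. Batf is a transcription factor of the AP-1 family. The reference animals are labelled WT, and the labels do not say whether they carry the Foxp3-Cre allele. The 4 groups of 3 libraries each were KO and WT cells stimulated for 48 h, and KO and WT cells without stimulation. Stimulation was plate-bound antibody to CD3 and CD28 at 5 µg/ml, which engages the T cell receptor complex and its costimulatory partner, with IL-2 at 200 U/ml. Whether the 3 libraries of a group stem from different animals is not stated in the labels, so the errors measure the spread between these libraries, which may be technical.

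Immunity-related GTPases are interferon-inducible proteins, strongly induced by interferon gamma in many mouse cell types, that act against intracellular parasites and bacteria enclosed in vacuoles. In the mouse they fall in 2 classes. The GKS proteins are effectors that load onto the vacuole membrane and break it, while the GMS proteins Irgm1, Irgm2 and Igtp (also called Irgm3) sit on the cell's own membranes and hold the effectors inactive there. Ubd encodes FAT10, a ubiquitin-like modifier induced by interferon gamma and tumour necrosis factor, which is joined to target proteins by the activating enzyme Uba6 and the conjugating enzyme Ube2z and sends them to the proteasome. In lymphocytes Irgm1 is also known for its part in the survival of stimulated T cells.

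The class names come from the nucleotide-binding loop, shown here because it is what separates the regulators from the effectors. The GMS proteins have methionine and the GKS proteins lysine before the last serine of the loop. The coding sequences of GENCODE M21, on GRCm38 (mm10), gave these 24 bases, 5′ to 3′ in the direction of the gene, with the codon that defines the class in capitals.
Igtp (codons 91 to 98; chr11:58206275-58206298, plus strand): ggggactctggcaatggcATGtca
Irgm1 (codons 83 to 90; chr11:48866761-48866784, minus strand): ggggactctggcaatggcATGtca
Irgm2 (codons 83 to 90; chr11:58219695-58219718, plus strand): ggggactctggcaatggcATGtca
Tgtp1 (codons 63 to 70; chr11:48987667-48987690, minus strand): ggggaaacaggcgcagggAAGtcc
Tgtp2 (codons 63 to 70; chr11:49059534-49059557, minus strand): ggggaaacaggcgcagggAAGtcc
Ifi47 (codons 81 to 88; chr11:49095648-49095671, plus strand): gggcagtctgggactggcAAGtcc
The 3 GMS genes had the same 24 bases, although their whole coding sequences shared between 65.0% and 69.3% of aligned bases. Iigp1 has the lysine codon at the same place. Ubd, with a coding sequence of 486 bases, has no such loop. Tgtp1 and Tgtp2 differed at 4 of 1245 aligned coding bases and at 6 of 2810 bases of their longest transcripts. The assignment of reads that match both copies is unknown here, so the separate values of Tgtp1 and Tgtp2 are uncertain. If such reads were left out, both values are also too low against those of other genes.

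Promoter windows of RefSeq (GRCm38.p6, the mm10 build), from 250 bases before to 50 bases after the annotated start, were matched for 7 of the 8 genes by symbol, all except Iigp1. They were searched on both strands for GAAANNGAA, the core of the interferon-stimulated response element (ISRE) bound by interferon regulatory factors; for TTCNNNGAA, the interferon gamma activated site (GAS); and for TGANTCA, the AP-1 element bound by Batf together with Jun proteins. The ISRE core was found in 5 of the 7 windows and in 8.56% of 32851 mouse promoters, and GAS in 4 of the 7 windows and in 8.30% of promoters. The AP-1 letters were found in 1 of the 7 windows, that of Irgm1, and in 7.81% of promoters. The stretches that hold the first 2 motifs are shown because they line up between genes, with the matched bases in capitals, 5′ to 3′ in the direction of the gene.
Igtp (chr11:58199503-58199538, plus strand): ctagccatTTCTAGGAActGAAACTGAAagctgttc
Irgm2 (chr11:58214894-58214929, plus strand): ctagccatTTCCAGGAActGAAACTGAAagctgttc
Tgtp1 (chr11:48992307-48992342, minus strand): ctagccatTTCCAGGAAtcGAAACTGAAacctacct
Tgtp2 (chr11:49064266-49064301, minus strand): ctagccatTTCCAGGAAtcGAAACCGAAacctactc
Irgm1 (chr11:48871428-48871458, minus strand): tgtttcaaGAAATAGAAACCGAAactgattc
In Igtp, Irgm2, Tgtp1 and Tgtp2 a GAS match was followed 2 bases later by an ISRE core match. That order and spacing was found in 8 of 32851 promoters (0.0244%), 1 for each of 8 genes of the 27025 in the table. The spacing searched for was the one seen in the windows of these GTPase genes, so nothing is read from their share. The other 4 were Adar, an RNA editing enzyme induced by interferon, Gm12185, which is a further gene of the GTPase family, Olfr382 and LOC115488470. Irgm1 instead had 2 ISRE core matches that overlap each other.

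The pair lay 45 bases before the start of Igtp, 75 before that of Irgm2, 88 before that of Tgtp1 and 81 before that of Tgtp2, counted to the first base of the GAS match. The whole windows of the GMS regulator Igtp and of Ubd are printed to set the window with the paired motif beside one in which none of the 3 motifs was found. Capitals again mark matched bases.
Igtp (chr11:58199306-58199605, plus strand): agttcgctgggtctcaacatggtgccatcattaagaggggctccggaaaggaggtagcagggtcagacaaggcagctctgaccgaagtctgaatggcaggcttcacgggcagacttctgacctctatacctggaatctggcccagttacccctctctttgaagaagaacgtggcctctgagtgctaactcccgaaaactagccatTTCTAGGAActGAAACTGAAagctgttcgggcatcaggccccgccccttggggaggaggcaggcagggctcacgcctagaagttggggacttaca
Ubd (chr17:37193642-37193941, plus strand): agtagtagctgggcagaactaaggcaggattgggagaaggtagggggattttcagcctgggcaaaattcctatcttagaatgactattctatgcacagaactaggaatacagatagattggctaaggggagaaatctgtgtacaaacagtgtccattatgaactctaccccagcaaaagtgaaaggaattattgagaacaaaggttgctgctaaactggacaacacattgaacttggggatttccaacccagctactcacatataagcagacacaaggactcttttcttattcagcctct
The Ifi47 window also held none of the 3 motifs. A match describes letters and not a bound site, and a window without a match says only that these letters are not in it.

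**Figure D1:**
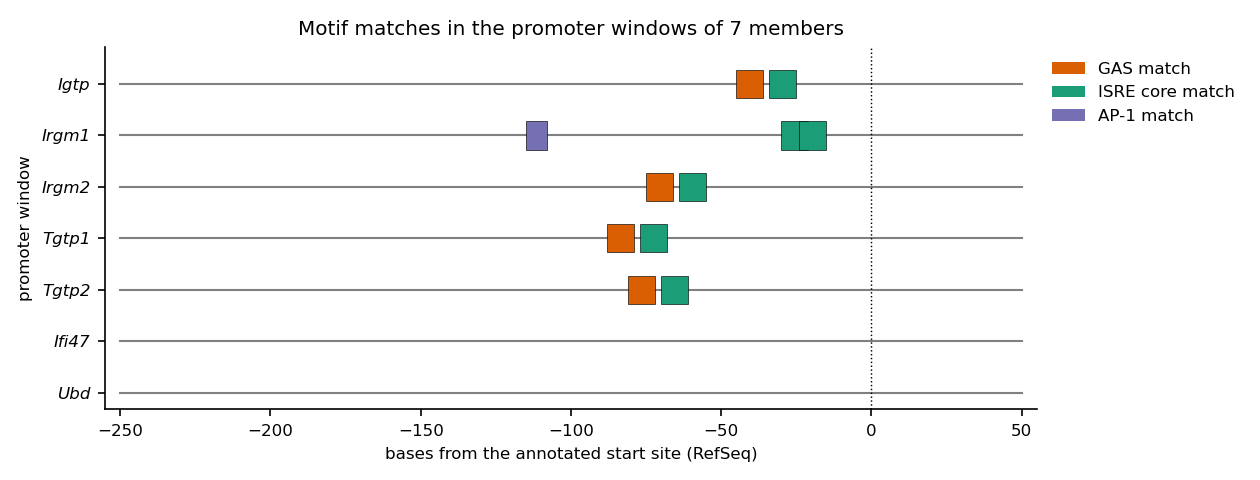
Positions of the 3 motifs in the promoter windows of 7 genes, with distance from the annotated start site in bases on the horizontal axis and 1 line per gene. Boxes mark GAS, ISRE core and AP-1 matches: Igtp, Irgm2, Tgtp1 and Tgtp2 have GAS directly before the ISRE core, Irgm1 has 2 overlapping ISRE core matches, and Ifi47 and Ubd have no box.

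Each library had between 22731823 and 32055383 reads assigned to genes. The 8 genes together took 0.192% to 0.205% of the reads in 48 h KO cells, 0.128% to 0.139% in 48 h WT cells, 0.164% to 0.180% in unstimulated KO cells and 0.128% to 0.132% in unstimulated WT cells. Batf RNA, which checks the labels, was at 21.9 ± 4.30 RPKM in KO and 129 ± 4.44 RPKM in WT after 48 h (SD, n = 3 each), and at 35.3 ± 10.7 RPKM in KO and 95.3 ± 6.57 RPKM in WT without stimulation. Foxp3, Il2ra, Ctla4, Ikzf2, Cd4 and Cd3e, the Treg marker list, were present in every group, but their sum was 487 to 534 RPKM in 48 h KO libraries, below the 739 to 820 RPKM of 48 h WT libraries. Without stimulation the sum was 743 to 870 RPKM in KO libraries and 868 to 953 RPKM in WT libraries, which overlapped. The part of this difference in the values of the 8 genes was not tested. Transcripts from the Y chromosome summed to 55.3 to 92.9 RPKM in WT libraries 1 and 2 of both states, and to at most 0.174 RPKM in WT library 3 and the KO libraries, so genotype and these transcripts cannot be fully told apart. Values without those 4 libraries, which set 3 KO libraries against 1 WT library per state, are given beside the results.

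Differences between groups were estimated with limma on log2(RPKM + 1) over all 12 libraries, and a gene was called at a Benjamini-Hochberg adjusted p under 0.05 over the 10406 genes tested. This scale understates the change of genes with little RNA. In KO against WT after 48 h, 7 of the 8 genes were called higher and 0 lower, where 7.76% of all tested genes were called higher and 9.81% lower. In KO against WT without stimulation, 5 were called higher and 0 lower, where 4.35% of all tested genes were called higher and 5.83% lower. Every KO library lay above every WT library for 7 of the 8 genes after 48 h (19.7% of all tested genes) and for 6 of the 8 without stimulation (12.4%). Because the genes were chosen on these values, nothing is read from the counts. In bulk RNA, a change in the number of cells that make a transcript and a change in the RNA per cell cannot be told apart.

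**Figure D2:**
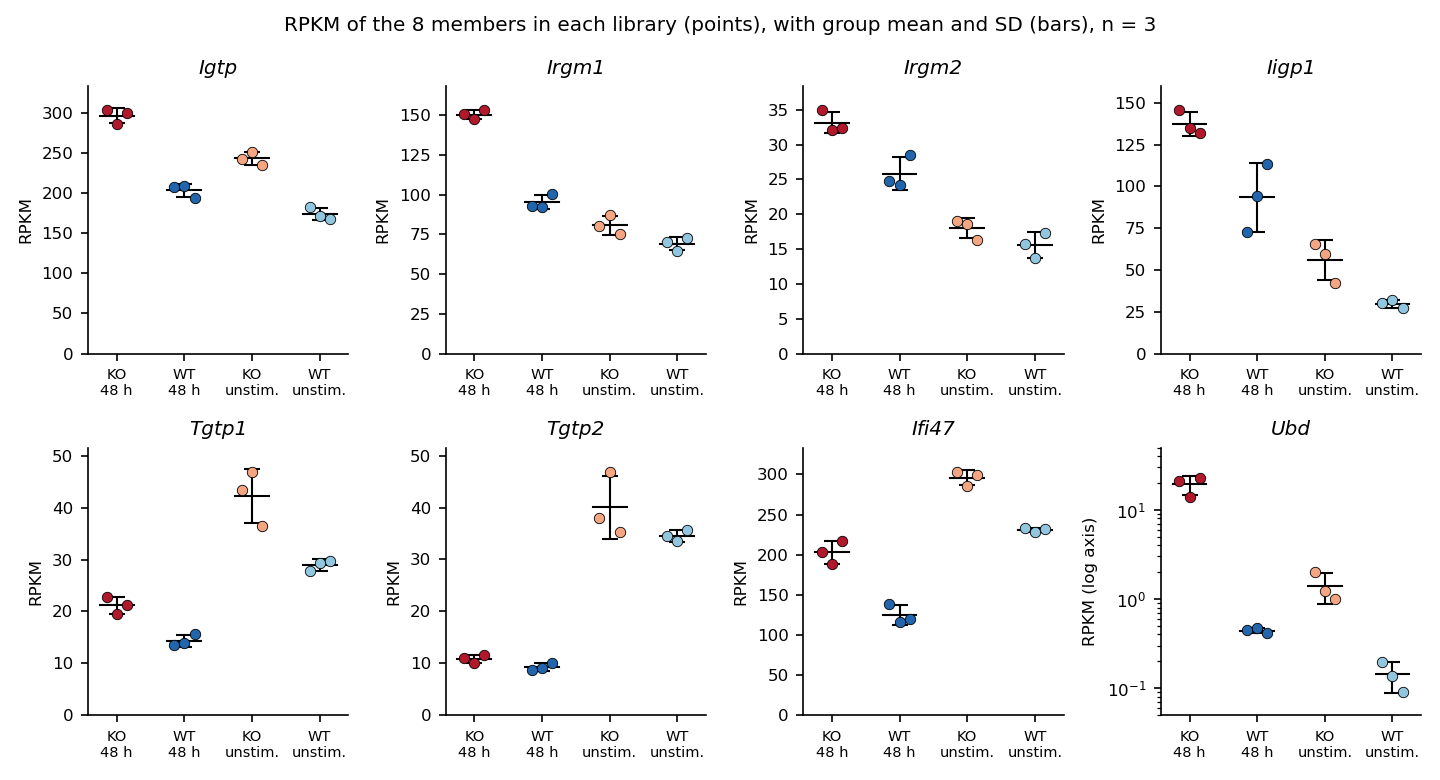
RPKM of each of the 8 genes in each of the 12 libraries (points; bars give group mean and SD, n = 3), with a log axis for Ubd alone. In both states the KO points lie above the WT points except for overlaps in Tgtp2 in both states and Irgm2 without stimulation, and Ubd stands at 14.1 to 22.7 RPKM in 48 h KO libraries against 0.411 to 0.469 RPKM in 48 h WT libraries.

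Among the GMS regulators, Igtp had the most RNA. Igtp had 303, 286 and 301 RPKM in KO cells after 48 h, against 207, 209 and 194 RPKM in WT cells. Without stimulation it had 243, 252 and 235 RPKM in KO cells, against 183, 171 and 168 RPKM in WT cells. The KO and WT libraries did not overlap in either state, and the unstimulated KO libraries also lay above the stimulated WT ones. The log2 fold change of KO against WT was 0.54 (SE 0.06) after 48 h and 0.48 (SE 0.06) without stimulation, both called, with an interaction (the 48 h effect minus the unstimulated one) of 0.06 (SE 0.08).

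Irgm1 had 151, 147 and 153 RPKM in KO cells after 48 h, against 93.0, 92.4 and 100.5 RPKM in WT cells. In the unstimulated state there were 80.0, 87.1 and 75.2 RPKM in KO cells, against 69.9, 64.6 and 73.0 RPKM in WT cells. The groups were far apart after 48 h and only just separate without stimulation, where the lowest KO library was close to the highest WT one. The log2 fold change of KO against WT was 0.65 (SE 0.07) after 48 h, which was called, and 0.22 (SE 0.07) without stimulation, which was not. The interaction of 0.43 (SE 0.10) was called. The interaction was no longer called without 1 of WT unstimulated libraries 1 and 3, WT 48 h library 2 or KO 48 h library 3 (0.39 to 0.43), while the unstimulated difference was called when libraries were scaled by median ratios (0.27), without unstimulated KO library 3 (0.27) or without 48 h WT library 3 (0.22).

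Irgm2 had the least RNA of the 3 regulators, with 34.9, 32.2 and 32.4 RPKM in KO cells after 48 h, against 24.8, 24.2 and 28.6 RPKM in WT cells. Without stimulation it had 19.1, 18.6 and 16.4 RPKM in KO cells, against 15.7, 13.7 and 17.4 RPKM in WT cells. The groups were separate after 48 h and overlapped without stimulation. The log2 fold change of KO against WT was 0.35 (SE 0.09) after 48 h, which was called, and 0.20 (SE 0.09) without stimulation, which was not. The 48 h call ended without any 1 of WT library 2, KO library 1 and KO library 3 (0.31 to 0.37) and with Y-linked transcripts as a term (0.21).

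Of the GKS effectors, Iigp1 (also called Irga6) was the one with more RNA after 48 h than without stimulation. Iigp1 had 146, 135 and 132 RPKM in KO cells after 48 h, against 72.6, 94.3 and 114 RPKM in WT cells. In the unstimulated state there were 65.7, 59.8 and 42.2 RPKM in KO cells, against 29.9, 32.1 and 27.1 RPKM in WT cells. KO libraries lay above WT ones in both states, but the 48 h WT libraries were widely spread. The log2 fold change of KO against WT was 0.57 (SE 0.16) after 48 h and 0.87 (SE 0.16) without stimulation, both called, and the interaction of -0.30 (SE 0.23) was not. The 48 h call ended without 1 of the 3 KO libraries, WT library 1 or WT library 2 (0.40 to 0.60), with no filter on low values (0.57) and when Y-linked transcripts entered the fit as a term (0.48).

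Tgtp1 and Tgtp2 both encode the effector known as Irgb6. Tgtp1 had 22.9, 19.5 and 21.3 RPKM in KO cells after 48 h, against 13.5, 13.9 and 15.7 RPKM in WT cells. Without stimulation it had 43.4, 47.0 and 36.5 RPKM in KO cells, against 27.8, 29.4 and 29.7 RPKM in WT cells. The groups were separate in both states, with a called log2 fold change of KO against WT of 0.53 (SE 0.09) after 48 h and 0.52 (SE 0.09) without stimulation.

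Tgtp2 had 10.9, 10.0 and 11.5 RPKM in KO cells after 48 h, against 8.65, 9.11 and 10.1 RPKM in WT cells. In the unstimulated state there were 38.0, 46.9 and 35.3 RPKM in KO cells, against 34.5, 33.5 and 35.8 RPKM in WT cells. The groups overlapped in both states, and neither log2 fold change of KO against WT was called (0.20, SE 0.10, in each state). The RPKM ratio of Tgtp1 to Tgtp2 was between 1.85 and 2.10 in 48 h KO libraries and between 1.53 and 1.56 in 48 h WT libraries. It was between 1.00 and 1.14 in unstimulated KO libraries and between 0.805 and 0.879 in unstimulated WT libraries. The 4 groups did not overlap in this ratio, which depends on how reads were divided between copies that differ at few bases. Unlike the coding bases, the promoter windows of the pair shared only 73.3% of aligned bases.

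Ifi47, the effector also called Irgd, had 204, 188 and 217 RPKM in KO cells after 48 h, against 139, 116 and 119.6 RPKM in WT cells. Without stimulation it had 303, 286 and 299 RPKM in KO cells, against 233, 228 and 231 RPKM in WT cells. KO libraries lay above WT ones in both states, by a margin wider than the range within any group. The called log2 fold change of KO against WT was 0.70 (SE 0.07) after 48 h and 0.35 (SE 0.07) without stimulation. The interaction of 0.34 (SE 0.10) was not called over all libraries, but was called without 48 h WT library 1 (0.42).

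Ubd, the FAT10 gene, was nearly silent in WT cells and had the widest difference of the 8. Ubd had 21.2, 14.1 and 22.7 RPKM in KO cells after 48 h, against 0.449, 0.469 and 0.411 RPKM in WT cells. In the unstimulated state there were 2.0, 1.22 and 1.01 RPKM in KO cells, against 0.199, 0.138 and 0.0904 RPKM in WT cells. The 4 groups were separate from one another, in the order 48 h KO, unstimulated KO, 48 h WT and unstimulated WT. The reads behind these values were 564, 360 and 682 in 48 h KO libraries and 11, 12 and 11 in 48 h WT libraries. Without stimulation they were 43, 26 and 25 in KO libraries and 5, 3 and 2 in WT libraries.

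From the summed reads, the share of Ubd in the library was 44.1-fold higher in KO than in WT after 48 h (95% exact interval 31.5 to 64.0) and 9.60-fold higher without stimulation (5.00 to 20.7). These intervals cover counting error only. On the log2(RPKM + 1) scale the fold changes were 3.79 (SE 0.17) after 48 h and 1.06 (SE 0.17) without stimulation, both called, and the interaction was 2.73 (SE 0.24), also called. The interaction was not called by limma-voom on the recovered reads (2.28). The WT libraries hold few reads of Ubd, so their levels are known less well than those of the GTPases.

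In the interaction, Irgm1 and Ubd were the 2 of 8 genes called higher and 0 were called lower, where 2.37% of all tested genes were called higher and 2.25% lower. Without the 4 libraries with Y-linked transcripts, KO against WT was called for 4 of the 8 genes after 48 h (Igtp, Irgm1, Ifi47 and Ubd) and for 1 without stimulation (Igtp), and both interaction calls ended with estimates of 0.44 (SE 0.14) for Irgm1 and 2.70 (SE 0.41) for Ubd, close to those over all 12 libraries, in a fit with 4 residual degrees of freedom. Log2 fold changes after 48 h without these libraries were 0.61 for Igtp, 0.58 for Irgm1, 0.21 for Irgm2, 0.27 for Iigp1, 0.41 for Tgtp1, 0.08 for Tgtp2, 0.76 for Ifi47 and 3.82 for Ubd. Without stimulation they were 0.53 for Igtp, 0.14 for Irgm1, 0.05 for Irgm2, 0.99 for Iigp1, 0.49 for Tgtp1, 0.15 for Tgtp2, 0.35 for Ifi47 and 1.12 for Ubd. All kept the sign, and those of Irgm2, Iigp1 after 48 h, Tgtp2 after 48 h and unstimulated Irgm1 shrank by over 1.5 times. The part of the Y-linked difference in these values was not tested.

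**Figure D3:**
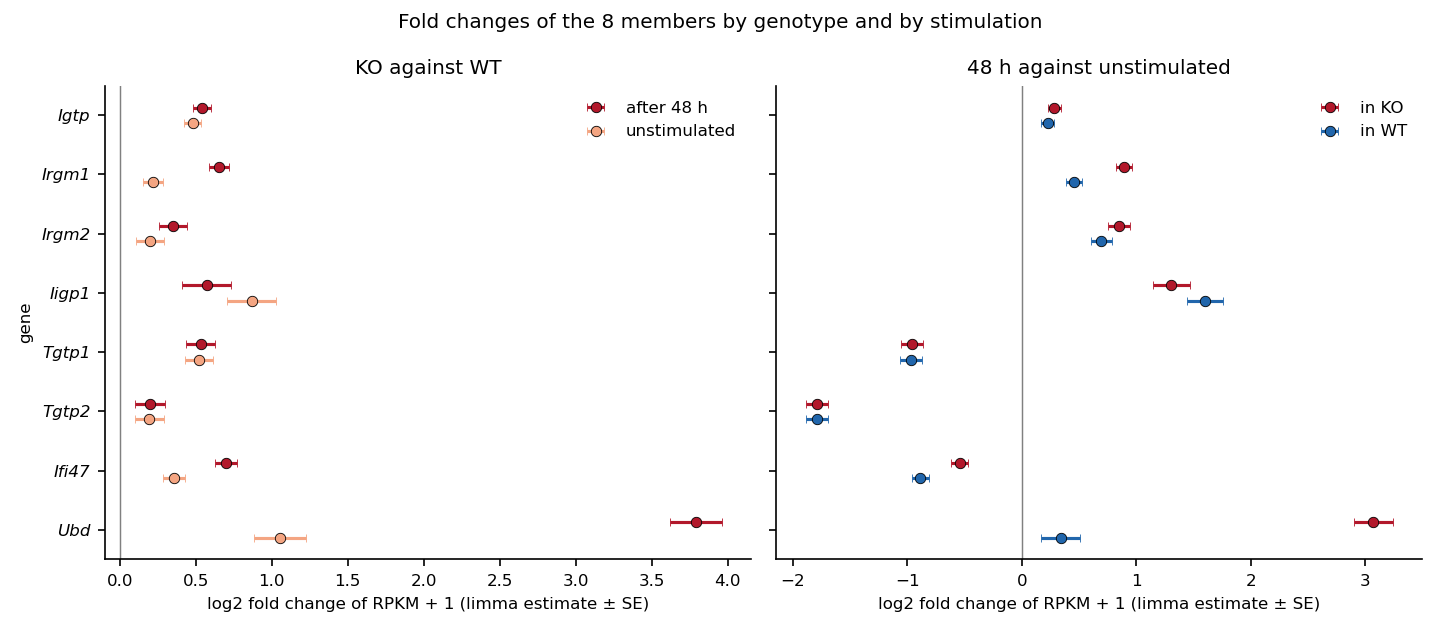
Log2 fold changes of RPKM + 1 (limma estimate ± SE) of the 8 genes, KO against WT in each state on the left and 48 h against unstimulated in each genotype on the right. The estimates of KO against WT all lie above 0, with Ubd after 48 h at 3.79, while the stimulation estimates split the GKS effectors, with Iigp1 above 0 and Tgtp1, Tgtp2 and Ifi47 below 0.

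The estimate of 48 h against unstimulated had the same sign in both genotypes for each of the 8 genes. After 48 h the GMS regulators and Iigp1 were higher and Tgtp1, Tgtp2 and Ifi47 were lower than without stimulation. In KO cells 5 of the 8 genes were called higher and 3 lower, where 44.3% of all tested genes were called higher and 34.6% lower. In WT cells 4 were called higher and 3 lower, where the shares of all tested genes were 44.5% and 35.4%. The exception in WT cells was Ubd, which was not called. Calls in both directions were common among all tested genes, and the 8 genes were chosen on their values, so nothing is read from the counts.

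Of the regulators, Irgm1 had a log2 fold change of 48 h against unstimulated of 0.89 in KO and 0.46 in WT (SE 0.07 each). That of Irgm2 was 0.85 in KO and 0.69 in WT (SE 0.09 each), and that of Igtp was 0.29 in KO and 0.22 in WT (SE 0.06 each). With libraries scaled by median ratios, the Igtp estimates were lower, at 0.17 in KO and 0.13 in WT, and both were still called. The Igtp estimate in WT was not called without the 4 libraries with Y-linked transcripts (0.21). Of the effectors, Iigp1 had 1.30 in KO and 1.60 in WT (SE 0.16 each), so its RPKM after 48 h was 2.46 times that of unstimulated KO cells and 3.15 times that of unstimulated WT cells. Tgtp1 had -0.96 in KO and -0.97 in WT (SE 0.09 each). Tgtp2 had -1.79 in each genotype (SE 0.10), which left 0.270 of the unstimulated mean in KO and 0.269 in WT. Ifi47 had -0.54 in KO and -0.89 in WT (SE 0.07 each).

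Ubd after 48 h stood at 14.0 times the unstimulated share of reads in KO cells (95% exact counting interval 11.4 to 17.5) and at 3.05 times in WT cells (1.47 to 6.93). The log2 fold change was 3.07 in KO, which was called, and 0.34 in WT, which was not (SE 0.17 each). The WT libraries of the 2 states did not overlap, and the WT change was called with a pseudocount of 0.25 (0.83), with the 2 WT groups fitted alone (0.34), and without unstimulated KO library 1 or 48 h KO library 2 (0.34).

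The sum of the 7 GTPase RPKM values was 853 ± 29.8 in 48 h KO cells and 567 ± 13.6 in 48 h WT cells (SD, n = 3 each). It was 776 ± 31.7 in unstimulated KO cells and 583 ± 10.6 in unstimulated WT cells. The KO sums were above the WT sums in every library. The GMS regulators summed to 480.4 ± 12.7 RPKM in KO and 325 ± 1.16 RPKM in WT after 48 h, and to 342 ± 15.3 RPKM in KO and 259 ± 9.50 RPKM in WT without stimulation. The GKS effectors summed to 372 ± 17.1 RPKM in KO and 242 ± 14.7 RPKM in WT after 48 h, and to 434 ± 19.2 RPKM in KO and 324 ± 1.13 RPKM in WT without stimulation.

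The ratio of effector to regulator RNA differed by state, with KO and WT close to each other. It was 0.775 ± 0.0154 in KO and 0.746 ± 0.0480 in WT after 48 h, and 1.27 ± 0.0445 in KO and 1.25 ± 0.0418 in WT without stimulation (SD, n = 3 each). The ranges of KO and WT overlapped within each state, while the 2 states did not overlap in either genotype. The effector sums hold Tgtp1 and Tgtp2, so the sums and the ratio depend on how reads matching both copies were treated. Ifi47 gave 23.8% of the summed RPKM in KO and 22.1% in WT after 48 h, against 38.2% in unstimulated KO cells and 39.6% in unstimulated WT cells. Iigp1 gave 16.1% in KO and 16.5% in WT after 48 h, against 7.16% in unstimulated KO cells and 5.10% in unstimulated WT cells.

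**Figure D4:**
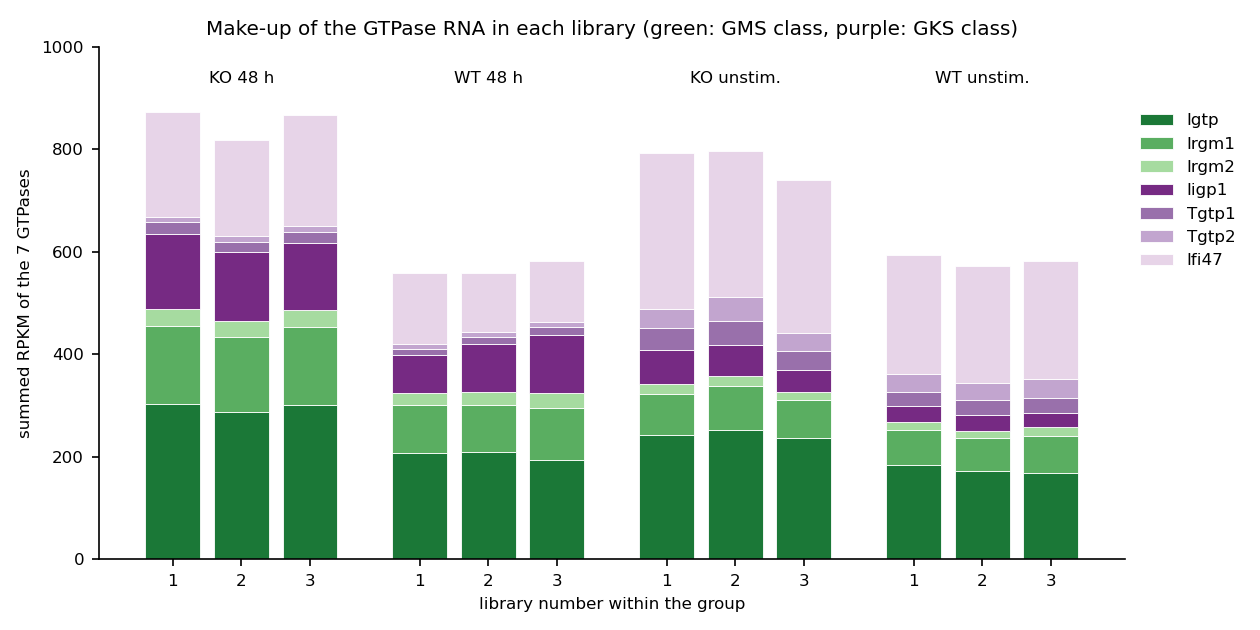
Stacked bars of the RPKM of the 7 GTPases in each of the 12 libraries, with GMS regulators in green below and GKS effectors in purple above. KO bars are taller than WT bars in both states, and after 48 h the Ifi47, Tgtp1 and Tgtp2 sections are smaller and the Iigp1 and Irgm1 sections larger than without stimulation.

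RPKM is scaled for exon length, so levels can be set in order within a group. The places of Tgtp1 and Tgtp2 are uncertain, because both values are too low if reads matching both copies were left out. Ifi47 and then Igtp were highest without stimulation, and Igtp and then Ifi47 after 48 h, in both genotypes, with no overlap between the pair. Irgm1 was in the next place in all 4 groups, but overlapped Iigp1 in 48 h WT cells. Tgtp2 lay above Iigp1 in unstimulated WT cells. Iigp1 overlapped Tgtp1 in both unstimulated groups, and Tgtp1 overlapped Tgtp2 in unstimulated KO cells. Ubd was lowest in 3 groups, while in 48 h KO cells it overlapped Tgtp1 and lay above Tgtp2.

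The profiles of the 8 genes over the 12 libraries, each centred on its own mean log2(RPKM + 1), were compared by the root mean square of their difference. The closest pair was Irgm1 and Irgm2 (0.130), followed by Tgtp1 and Ifi47 (0.199) and by Igtp and Irgm1 (0.244). Tgtp1 and Tgtp2 were 0.449 apart in spite of their sequence, and Ubd was 1.17 from its nearest GTPase, Iigp1. These 12 libraries share their groups, so the values describe a likeness of patterns only.

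Outside the family, the genes nearest to the mean profile of the 7 GTPases among 7115 genes with a mean of at least 5 RPKM were Tmem173 (0.105), Swap70 (0.112), Tmem19 (0.118), Sil1 (0.144) and Tap2 (0.145), where the median gene was at 0.453. A gene with no change would be at 0.240 from this mean profile. The mean profile averages GTPase genes that rose and GTPase genes that fell with stimulation, so likeness to it is not likeness to each of them. Tmem173, which encodes the adaptor STING, had 229 ± 6.47 RPKM in KO and 173 ± 4.0 RPKM in WT after 48 h, and 227 ± 26.4 RPKM in KO and 192 ± 10.5 RPKM in WT without stimulation. The genes nearest to Ubd were Slc2a6 (0.788), Igfbp7 (0.831), Serpina3f (0.941), Cd80 (0.959) and Mlf1 (0.984), where the median gene was at 1.61. Slc2a6, a member of the glucose transporter family, had 33.8 ± 14.7 RPKM in KO and 6.84 ± 0.376 RPKM in WT after 48 h, and 3.89 ± 2.66 RPKM in KO and 0.978 ± 0.504 RPKM in WT without stimulation. Serpina3f, a serine protease inhibitor, had 48.9 ± 9.35 RPKM in KO and 11.2 ± 0.263 RPKM in WT after 48 h, and 2.73 ± 0.149 RPKM in KO and 1.99 ± 0.512 RPKM in WT without stimulation.

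The other genes of the pathways were followed as lists, and the first held the remaining family members. Of 12 symbols, 9 were in the table and 4 were tested. In KO against WT 2 of the 4 rose and 0 fell after 48 h (median log2 fold change 0.54, against -0.004 over all tested genes), and 3 rose and 0 fell without stimulation (0.48, against -0.02). Gm12250, the effector gene also known as Irgb10, rose to 71.2 ± 3.80 RPKM in KO cells after 48 h, against 42.5 ± 1.71 RPKM in WT cells (log2 fold change 0.73, SE 0.07, limma adjusted p = 3.01e-05). Without stimulation it rose to 37.0 ± 3.15 RPKM in KO cells, against 25.6 ± 1.44 RPKM in WT cells (0.52, SE 0.07, limma adjusted p = 0.000937). Like Iigp1, Gm12250 was higher after 48 h than without stimulation, with a log2 fold change of 0.93 in KO and 0.71 in WT (SE 0.07 each). Gm4951 rose in both states (1.03, SE 0.22, after 48 h, and 1.37, SE 0.22, without stimulation, limma adjusted p = 0.00677 and 0.00194).

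Interferon gamma RNA did not pass the test. Ifng was at 76.8, 227 and 136 RPKM in KO cells after 48 h, against 82.0, 113 and 94.2 RPKM in WT cells. The KO libraries were widely spread and overlapped the WT ones (log2 fold change 0.48, SE 0.27, limma adjusted p = 0.237), and the estimate was 0.87 and called without 48 h KO library 1. Without stimulation Ifng was at 6.41 ± 0.715 RPKM in KO cells and 5.92 ± 0.637 RPKM in WT cells (0.10, SE 0.27, limma adjusted p = 0.86). Of the 19 genes of interferon gamma signalling, 7 rose and 2 fell in KO against WT after 48 h (median 0.23), and 3 rose and 1 fell without stimulation (median 0.03).

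The receptor chains moved apart after 48 h. Ifngr1, the ligand-binding chain, fell to 25.8 ± 1.88 RPKM in KO cells, against 40.4 ± 2.0 RPKM in WT cells (-0.62, SE 0.07, limma adjusted p = 6.65e-05), and Ifngr2, the signalling chain, rose to 10.3 ± 2.04 RPKM, against 7.05 ± 1.49 RPKM (0.50, SE 0.14, limma adjusted p = 0.0278). The transcription factor Irf1 rose to 61.1 ± 0.421 RPKM in KO cells, against 42.1 ± 1.66 RPKM in WT cells (0.53, SE 0.07, limma adjusted p = 0.000152). The feedback inhibitor Socs1 rose to 169.6 ± 26.2 RPKM in KO cells, against 96.4 ± 19.3 RPKM in WT cells (0.82, SE 0.17, limma adjusted p = 0.00522). The kinases Jak1 (-0.15, SE 0.08) and Jak2 (0.23, SE 0.11) did not pass after 48 h (limma adjusted p = 0.22 and 0.175). Without stimulation Jak1 fell (-0.40, SE 0.08, limma adjusted p = 0.00769). The Ifngr2 call ended without 48 h WT library 1, KO library 1 or KO library 3, with no filter, with the 2 groups fitted alone and with Y-linked transcripts as a term (0.34 to 0.50).

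The guanylate-binding proteins form another family of interferon gamma induced GTPases at pathogen vacuoles, and 9 of 10 tested genes rose and 0 fell in KO against WT after 48 h, with a median log2 fold change of 1.03. Without stimulation 2 rose and 0 fell, with a median of 0.17. Gbp5 rose by 1.79 (SE 0.14, limma adjusted p = 3.02e-06) and Gbp6 by 1.07 (SE 0.09, limma adjusted p = 4.24e-06) after 48 h. Gbp2 rose to 126 ± 11.5 RPKM in KO cells after 48 h, against 47.1 ± 10.3 RPKM in WT cells (1.42, SE 0.16, limma adjusted p = 4.97e-05). Gbp2b rose to 2.83 ± 0.434 RPKM, against 0.339 ± 0.276 RPKM (1.53, SE 0.19, limma adjusted p = 0.000153). Gbp2 and Gbp2b are similar in sequence, so their separate values are uncertain.

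Stimulation lowered 10 of 10 guanylate-binding protein genes in WT cells (median -1.84) and lowered 7 and raised 1 in KO cells (median -1.19). The interaction was called higher for 4 of the 10 and lower for 0, with a median of 0.66, and 2 of them were Gbp5 (1.52, SE 0.20, limma adjusted p = 0.000832) and Gbp6 (0.94, SE 0.12, limma adjusted p = 0.000897).

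Of 19 other interferon gamma induced genes tested, 11 rose and 0 fell in KO against WT after 48 h (median 0.33), and 2 rose and 1 fell without stimulation (median 0.14). They included the peptide transporter genes Tap1 and Tap2 and the peptide-loading gene Tapbp. Tap1 rose to 281 ± 9.65 RPKM in KO cells after 48 h, against 182 ± 19.0 RPKM in WT cells (0.63, SE 0.08, limma adjusted p = 0.000153). Tapbp rose to 86.3 ± 4.29 RPKM, against 57.0 ± 1.24 RPKM (0.59, SE 0.06, limma adjusted p = 1.88e-05), and Tap2 to 114 ± 9.43 RPKM, against 77.6 ± 6.43 RPKM (0.55, SE 0.08, limma adjusted p = 0.000519). Nos2, the inducible nitric oxide synthase, was at 2.13 ± 0.689 RPKM in KO and 0.293 ± 0.111 RPKM in WT after 48 h (1.25, SE 0.15). It reached 1 RPKM only in the 48 h KO libraries and so passed the filter through that group alone, which means that its place among the 11 already required a difference. The gene of this list that fell without stimulation was Cxcl10 (-1.68, SE 0.14, limma adjusted p = 6.95e-06). In that state it had 1.27 to 1.62 RPKM in KO libraries and 6.02 to 7.74 RPKM in WT libraries. After 48 h Cxcl10 was not called (0.31, SE 0.14, limma adjusted p = 0.133). Its interaction was called (1.99, SE 0.19, limma adjusted p = 0.000101).

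Genes that work with the members at the protein level had counts of calls near the shares of all tested genes given above (7.76% higher and 9.81% lower after 48 h), so nothing is read from the counts. The Atg8 conjugation genes of autophagy, which guide the GTPases to membranes, had 1 of 11 higher (Atg16l1, 0.32, SE 0.08, limma adjusted p = 0.0221) and 1 lower (Gabarap, -0.28, SE 0.08, limma adjusted p = 0.0327) in KO against WT after 48 h, with a median of 0.06. Without stimulation 0 rose and 1 fell. Of 7 genes for FAT10 conjugation and handling, 0 rose and 1 fell after 48 h (median 0.01), and 1 rose and 0 fell without stimulation. The gene that fell was Uba6, the enzyme that activates FAT10, at 12.6 ± 1.03 RPKM in KO cells, against 17.7 ± 1.94 RPKM in WT cells (-0.46, SE 0.13, limma adjusted p = 0.0305). The 14 other ubiquitin-like modifier genes had a median log2 fold change of KO against WT of 0.11 after 48 h, and by limma 0 of them were called without stimulation, where 1 was under 0.05 by unadjusted p and limma-voom called 0.

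The calls of Atg16l1, Gabarap and Uba6 after 48 h each ended when 48 h WT library 2 or 3 or 48 h KO library 2 or 3 was left out. That of Atg16l1 also ended without 48 h KO library 1. In those fits with 48 h WT or KO libraries 2 or 3 left out, the values ran from 0.26 to 0.32 for Atg16l1, -0.31 to -0.20 for Gabarap and -0.47 to -0.38 for Uba6.

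**Figure D5:**
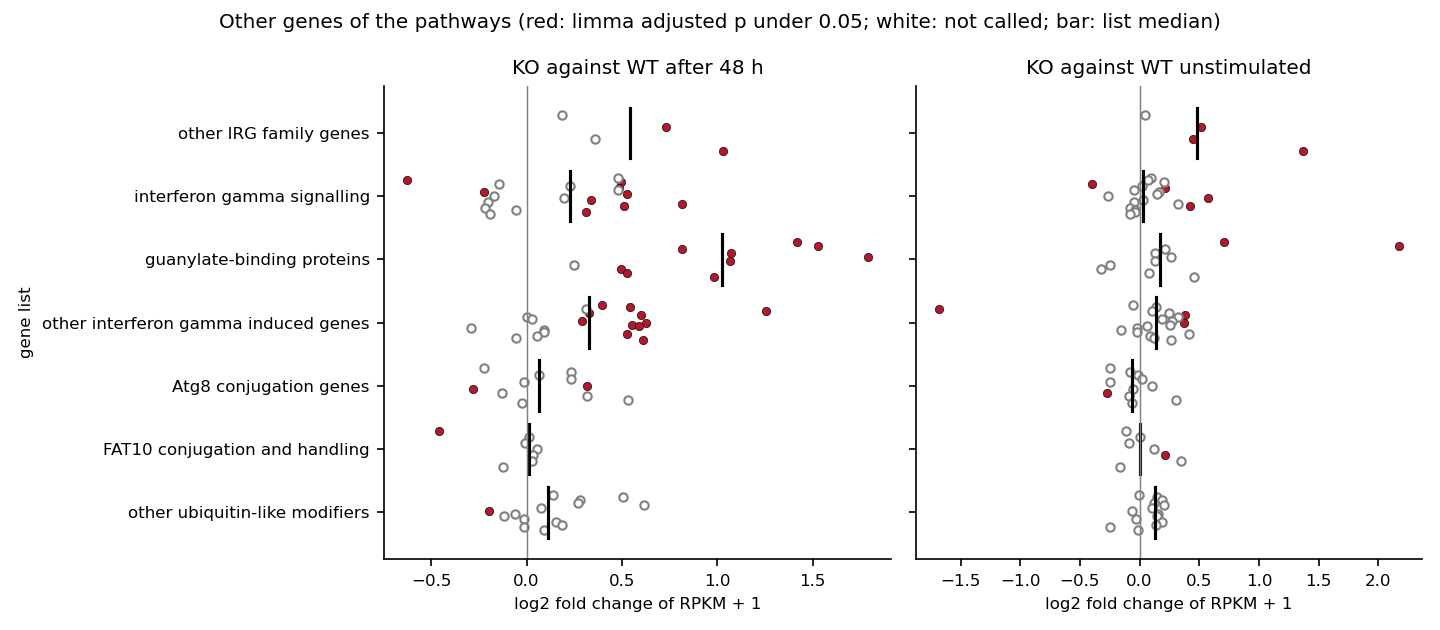
Log2 fold change of KO against WT of the tested genes in the 7 lists (points; red, limma adjusted p under 0.05; white, not called; bars, list medians), after 48 h on the left and without stimulation on the right. The guanylate-binding proteins lie farthest to the right after 48 h, with a median of 1.03, and the 3 lists of conjugation and modifier genes have medians between -0.06 and 0.13 in both states.

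Of the 8 genes, 6 sit in 2 groups on chromosome 11 (mm10, coordinates of the deposited table). Irgm1 (chr11:48865249-48871346, minus strand), Tgtp1 (chr11:48985329-48992246, minus strand), Tgtp2 (chr11:49057196-49064212, minus strand) and Ifi47 (chr11:49076587-49096987, plus strand) lie within 232 kb, and Igtp (chr11:58199556-58207592, plus strand) and Irgm2 (chr11:58214977-58222783, plus strand) within 23 kb. Iigp1 (chr18:60376029-60392629, plus strand) and Ubd (chr17:37193892-37196101, plus strand) stand alone. The values are sums over all exons of a gene. The span of Olfr56, an olfactory receptor gene on the plus strand (at most 1.35 RPKM), contains the spans of Tgtp2 and Ifi47, so a small part of their reads could have been divided with it.

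The nearest 2 entries of the table on each side of each gene gave 21 distinct neighbours outside the 8, of which 10 were under 1 RPKM in every library and 10 were tested. In KO against WT after 48 h, 3 of the 10 were called, namely Gm12250 next to Igtp (0.73) and Gm4841 near Iigp1 (0.96), which were higher, and Dctn4 near Iigp1 (-0.36), which was lower. Without stimulation 2 were called, Gm12250 and Gm12185. The 4 neighbours of Ubd are olfactory receptor genes and were listed at 0 RPKM in all 12 libraries. Gm4841, Dctn4 and Gm12185 were named here after their values were seen.

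Markers of other cell types were read in the same libraries. The summed level of the 6 dendritic cell markers was 0.854 to 1.60 RPKM in 48 h KO libraries and 0.428 to 0.478 RPKM in 48 h WT libraries, with 5 of 6 markers under 1 RPKM in KO, 6 of 6 in WT, and Clec9a and Siglech at 0 in both groups. It was 3.59 to 4.14 RPKM in unstimulated KO libraries and 1.79 to 2.57 RPKM in unstimulated WT libraries. KO sums thus lay above WT sums in both states, but the markers did not move together. Without stimulation Xcr1 was at 2.31 RPKM in KO and 0.274 RPKM in WT, and Zbtb46 at 0.593 RPKM in KO and 0.257 RPKM in WT. The means of Itgax, Flt3, Clec9a and Siglech were lower in KO than in WT in that state. After 48 h Zbtb46 had the most RNA of the list, at 0.976 RPKM in KO and 0.333 RPKM in WT. The 9 myeloid cell markers summed to 0.654 to 1.60 RPKM in KO and 2.90 to 3.49 RPKM in WT after 48 h, with C1qa and C1qb at 0 in both groups, and to 20.6 to 22.6 RPKM in KO and 30.4 to 37.8 RPKM in WT without stimulation. The 5 B cell markers summed to 3.63 to 7.97 RPKM in KO and 2.50 to 4.18 RPKM in WT after 48 h, and to 42.3 to 85.8 RPKM in KO and 37.4 to 43.1 RPKM in WT without stimulation, with overlap in both states. Sums of the 3 NK cell markers and the 2 CD8 T cell markers overlapped between KO and WT in both states, and the defining epithelial markers Krt5 and Krt8 were at 0 in all groups. The 5 epithelial markers summed to 7.27 to 7.81 RPKM in KO and 9.23 to 12.3 RPKM in WT after 48 h, and to 2.65 to 4.0 RPKM in KO and 6.36 to 7.94 RPKM in WT without stimulation, so KO sums lay below WT sums in both states, and Epcam was the 1 marker of the 5 above 1 RPKM. The part of other cell types in the values of the 8 genes was not tested.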

How the data were processed

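RNA of sorted mouse Treg cells was sequenced in 12 libraries, 3 in each of 4 groups. Per the labels' protocols, the library kit keeps the strand and selects polyadenylated RNA. The submitters' processing notes name FastQC, STAR, featureCounts, Subread and DESeq2 without versions or roles, and the build mm10; the strand setting, the annotation release and the treatment of reads matching several genes stay not given in the sources used here. Deposited by the authors was 1 RPKM value per gene and library with the exon length of each gene. Multiplied by length, 100% of values were whole reads of 1 step per library within 0.01, and the reads summed to 22731823 to 32055383 per library. The deposited RPKM values were used as they are, except 27 entries whose symbol is a date (0.185% to 0.284% of reads), which were left out.

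In R 4.3.3, limma 3.58.1, moderated and with a trend on the mean, was fitted to log2(RPKM + 1) of 10406 genes that reached 1 RPKM in 3 or more libraries, with 1 mean per group, 8 residual degrees of freedom and Benjamini-Hochberg adjustment within each of 5 contrasts at 0.05. The fit was tested on simulated data. The 8 genes, the pathway lists and the rules were chosen with earlier results of these data known. Named are the 8 genes, Batf, for each list up to 4 genes of smallest adjusted p after 48 h, 8 interferon gamma signalling genes, and the 5 genes nearest to a profile. Cxcl10 was named after its values were seen. Members were matched by symbol to RefSeq and GENCODE M21 for sequences. Replicates differed by more than counting error, with chi-square per degree of freedom of 5.86 to 39.95. Library numbers were checked as pairs by whether same-numbered libraries deviated from their group means together, with a bound of 0.1: KO libraries of the 2 states passed (correlations 0.274, 0.19 and 0.11), WT ones did not all pass (0.075, 0.134 and 0.146), nor did KO and WT libraries of 1 state. Alternatives were other pseudocounts, filters and scalings, limma-voom on the recovered reads, the 2 groups alone, replicate blocks, a term for Y-linked transcripts, and each library or the 4 with Y-linked transcripts left out.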

Additional observations from a re-analysis of the deposited data

Results flagged for a closer look

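The limma interaction over all 12 libraries is the 48 h log2 fold change of KO against WT minus the unstimulated one. Apart from Cxcl10 (1.99), described with the interferon gamma induced genes, it was called for 10 of the genes whose values are given by genotype and state. Among the immunity-related GTPases this was Irgm1, with an interaction of 0.43 from 0.65 after 48 h and 0.22 without stimulation, and Ubd had 2.73 from 3.79 and 1.06. The deleted gene Batf had -1.08 (-2.52 after 48 h and -1.45 without stimulation), a call that ended without any 1 of 5 libraries and with no filter on low values. Of the signalling genes, Ifngr1 had -0.70 (-0.62 after 48 h and 0.07 without stimulation) and Irf1 had 0.38 (0.53 and 0.15), although the Irf1 call ended without any 1 of 10 of the 12 libraries and with either replicate block. Gbp5 had 1.52 (1.79 and 0.26), Gbp6 had 0.94 (1.07 and 0.13) and the peptide-loading gene Tapbp had 0.53 (0.59 and 0.06). Serpina3f, picked for its likeness to Ubd, had 1.69 (2.02 and 0.33). Nos2 had 1.15 (1.25 and 0.10), but it passed the filter only through the 48 h KO libraries, was listed at 0 RPKM in the unstimulated WT libraries, and its value turned to -0.54 by limma-voom on the recovered reads. Without the 4 libraries with Y-linked transcripts, in a fit with 1 WT library per state and 4 residual degrees of freedom, the interaction of Serpina3f was still called (1.89) and the other 9 calls ended, with estimates between 0.782 and 1.13 times those over all 12 libraries. Irgm1, Ubd and Serpina3f were chosen on values of these libraries, so their values are a description. In the lists, other genes were also called in the interaction.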

How the results depend on the processing

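Of the 8 genes, 5 were called in KO against WT without stimulation, 7 after 48 h, 8 by stimulation in KO, 7 in WT and 2 in the interaction. With the replicate block over 12 libraries these counts were 5, 7, 8, 7 and 2. The block by genotype and number gave 8, 7 and 2 for the last 3, and changed no call of a member, but the block over 12 libraries ended the interaction call of Irf1 and the 48 h call of Gabarap. Leaving out the 4 libraries with Y-linked transcripts gave 1 without stimulation, 4 after 48 h and 0 in the interaction, and limma-voom gave 1 in the interaction. Leaving out 1 library gave 5 to 6, 5 to 7 and 1 to 3. For the pathway lists together, 14 calls without stimulation became 9 with the 2 groups alone, 2 without the Y-linked libraries and 8 to 17 without 1 library. The 35 calls after 48 h became 22 without the Y-linked libraries and 20 to 42 without 1 library. The 10 interaction calls became 6 with the replicate block over 12 libraries, 1 without the Y-linked libraries and 6 to 11 without 1 library. The Nos2 interaction reversed to -0.54 by limma-voom. The cause of these changes was not tested, beyond the fewer libraries and residual degrees of freedom of the fits that leave libraries out. Median-ratio scaling shifted the median of all genes by less than 0.1 in each contrast. Depth limits Ubd in WT, where a library held 2 to 12 reads.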
